A study of Mus musculus with 12 samples.

Results

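Imatinib was compared with vehicle in G0M- leukemic progenitors, the cycling counterpart of the G0M+ leukemic stem cells in a mouse model of chronic myeloid leukemia (CML). The members were the 6 libraries named IMSP (imatinib, n = 3) and SP (vehicle, n = 3) of the 12 in the series, taken by their labels. The other 6 held G0M+ cells given imatinib (IMDP, n = 3) or vehicle (DP, n = 3). They are used to ask where the response of the progenitors differed. They also enter the filter on low values and the estimate of spread behind each p-value. Each library was RNA-seq of 100 CD27+ KSL cells that carried BCR-ABL1, sorted from bone marrow and spleen. KSL cells are lineage-negative cells with Kit and Sca-1 on the surface, the fraction that holds stem and early progenitor cells, and the G0 marker (G0M) is a fluorescent fusion to a defective p27 that accumulates in quiescent cells.

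In all 4 groups the host strain was C57BL/6. Per the study's methods, the reporter was switched on in blood cells by Vav1-Cre, human BCR-ABL1 was put into marrow cells of donors given 5-fluorouracil with a retrovirus that also carried GFP, and the cells were grafted into lethally irradiated recipients, so the vehicle arm carried the same oncogene, reporter and Cre. Imatinib or vehicle was given by oral gavage once a day. A reporting summary of the study gives young adult female mice for every experiment. The labels do not say whether the 3 libraries of a group came from separate mice or from pooled mice, so p-values measure the spread between these libraries, which may be technical. KSL cells without BCR-ABL1 were not analysed here.

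As background, BCR-ABL1 is a constitutively active tyrosine kinase that feeds the RAS-ERK, PI3K and JAK-STAT5 pathways, and imatinib blocks its ATP pocket. ERK activity is read out within minutes by the immediate-early genes (FOS, JUN, EGR and NR4A families) and by feedback inhibitors of the DUSP, SPRY and SPRED families, whereas STAT5 activity is read out by Cish, Socs2, Pim1 and Bcl2l1. In CML, quiescent stem cells are known to outlast imatinib better than their cycling progeny.

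Library sizes recovered from the values were 11367600 to 20573800 reads in the 6 libraries, and 1 read per kilobase was worth 0.0486 to 0.088 RPKM (reads per kilobase of transcript, relative to library size). Of these reads 32.6 to 37.1% in IMSP and 32.1 to 34.1% in SP cells fell on the listed genes, against 25.9 to 31.1% in IMDP and 30.8 to 33.6% in DP cells. Several library-wide facts bear on the comparison. The library numbers of the 6 imatinib samples were all below those of the 6 vehicle samples, which means that drug and order of handling cannot be told apart. IMSP3 stood apart from IMSP1 and IMSP2 in 4 Y-linked genes (Ddx3y, Kdm5d, Eif2s3y and Uty), which summed to 14.4 RPKM in IMSP3 and 15.6 RPKM in IMDP3, the neighbouring library number, and to at most 0.289 RPKM in the other 10 libraries. These reads go against the stated female sex for those libraries, and their origin was not tested. Xist was listed at 0 in all 12. IMSP2 correlated better with SP1 (Pearson r = 0.953 over genes) than with IMSP3 (r = 0.91), and the first principal component of the 6 libraries (39.6% of variance) placed IMSP1 (-26.7), IMSP3 (-39.6) and SP2 (-6.59) on one side and IMSP2 (23.7), SP1 (13.0) and SP3 (36.3) on the other, so it did not separate the treatments. List counts are therefore also given without IMSP2 and without IMSP3. The sort's identity genes (Kit, Ly6a, Cd27, Cd34, Ptprc and Flt3) were detected in every library and summed to 118 to 132 RPKM in IMSP and 83.6 to 101 RPKM in SP cells. Lineage markers were present at varied levels. T cell genes summed to at most 0.512 RPKM (Cd3g and Trac at 0), NK cell genes to at most 1.96 RPKM, B cell genes to 1.61 to 4.13 RPKM in IMSP and 1.38 to 3.75 RPKM in SP cells (3 of 6 at 0: Ms4a1, Pax5 and Ebf1), and macrophage genes to 0.31 to 2.3 and 0.639 to 1.81 RPKM, highest in IMSP3 (4 of 7 at 0: C1qa, C1qb, C1qc and Cd5l). Neutrophil genes summed to 4.21 to 6.89 RPKM in IMSP and 3.8 to 50.7 RPKM in SP cells, with SP2 highest. Erythroid genes summed to 10.7 to 72.9 RPKM in IMSP and 54.7 to 148 RPKM in SP cells, where the highest sum, in SP3, was above that library's identity sum of 101 RPKM. Mast cell and basophil genes summed to 6.77 to 25.7 and 14.2 to 44.9 RPKM, and megakaryocyte genes to 6.91 to 44.7 and 11.6 to 41.6 RPKM. The part of these cells in the results was not tested. In bulk libraries of this kind, fewer cells of a type and less RNA per cell cannot be told apart.

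Across the genome the response was spread over many genes and none passed the test. Of 10072 genes tested, 0 (0%) reached an adjusted p of 0.05 (limma on log2(RPKM + 0.1), Benjamini-Hochberg), and the smallest adjusted p was 0.234. In a limma fit of the IMSP and SP libraries alone the smallest was 0.582. On the recovered reads, limma-voom also called 0, with 477 higher and 381 lower at an unadjusted p under 0.05. At an unadjusted p under 0.05, 614 genes (6.1%) were higher and 231 (2.29%) lower in IMSP cells. Without IMSP2 these counts were 612 (6.08%) and 508 (5.04%), and without IMSP3 they were 658 (6.53%) and 133 (1.32%). The excess of higher genes rested on the scale of the libraries: 64.5% of all genes had a log2 fold change above 0, and after scaling each library to the same median the counts were 419 (4.16%) higher and 438 (4.35%) lower. The 3 IMSP values lay wholly above the 3 SP values for 1114 genes (11.1%) and wholly below them for 274 (2.72%), or for 696 (6.91%) and 630 (6.25%) after that scaling. These shares are the background for each gene group, all of which had 0 members past the adjusted threshold. The plot of member fold changes by gene list shows 3 groups with medians clearly below 0 (immediate-early, NF-kB and stress response genes) and the cytokine receptor, cholesterol, myeloid and S phase genes with the medians farthest above 0 (0.47, 0.29, 0.28 and 0.27).

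**Figure D1:**
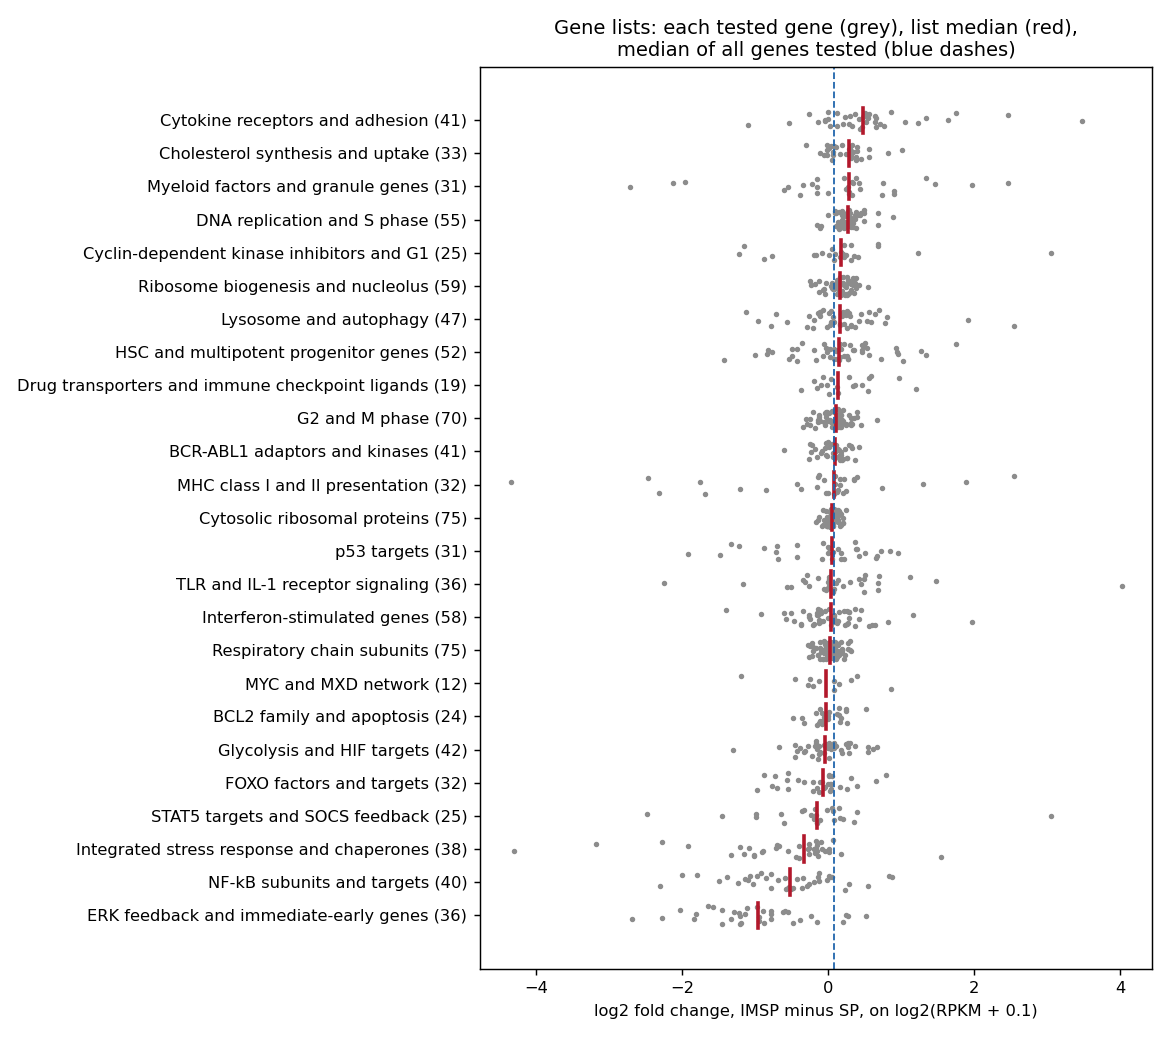
Log2 fold change of each tested member of 25 gene lists (grey points) in IMSP against SP cells, with the list median (red) and the median of all 10072 genes (blue dashes, 0.08). The immediate-early list has the lowest median (-0.97) and the cytokine receptor list the highest (0.47), and no point passed an adjusted p of 0.05.

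Immediate-early and ERK feedback genes were lower as a list in IMSP than in SP cells, and ERK activity itself was not measured. Of 40 immediate-early and ERK feedback genes, 36 passed the filter on low values. Their median log2 fold change was -0.97, against 0.08 for all genes, and 32 of the 36 were below 0. At an unadjusted p under 0.05, 19 were lower and 0 higher, and 9 lay wholly below SP cells. Without IMSP2 the list held 23 lower and 1 higher, and without IMSP3 14 lower and 0 higher. The list score per library, the mean log2 value of the members minus the mean of all genes, was -1.21, -0.31 and -0.43 in IMSP1 to IMSP3 and 0.58, -0.30 and 0.95 in SP1 to SP3, so SP2 lay at the level of IMSP2. Fosb, an AP-1 subunit (chromosome 7, 19302696 to 19310051, GRCm38, minus strand), was at 6.99, 15 and 10.8 RPKM in IMSP1 to IMSP3 and 40.5, 21.5 and 35.4 RPKM in SP1 to SP3. The groups did not overlap (10.9 ± 4.0 against 32.5 ± 9.83 RPKM, mean ± SD, n = 3 each), and the log2 fold change was -1.58 ± 0.28 (SE), with an adjusted p of 0.234 by limma. Fos, its better known relative, was at 28.5, 53.1 and 53.8 RPKM with imatinib and 129.7, 55.2 and 73.8 RPKM with vehicle. Its groups only just separated, with IMSP2 and IMSP3 close to SP2. Spred2, a membrane inhibitor of RAS-ERK signaling, was at 2.34, 2.05 and 3.19 RPKM in IMSP and 5.07, 3.62 and 6.46 RPKM in SP cells, also without overlap (log2 fold change -0.96 ± 0.23, SE).

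Some of these genes tracked single libraries more than the treatment. Egr1, a zinc finger factor induced by ERK, was at 8.5, 67.4 and 17.4 RPKM in IMSP and 60.4, 43.2 and 119.5 RPKM in SP cells. IMSP2 was above SP1 and SP2, the groups overlapped, and the log2 fold change of -1.65 became -2.47 without IMSP2. Dusp6, the phosphatase that removes phosphate from ERK itself, was at 7.16, 5.82 and 6.36 RPKM with imatinib and 11.6, 7.36 and 8.52 RPKM with vehicle, a small separation (log2 fold change -0.48 ± 0.22, SE). Chosen after their values were seen, Jund, Dusp5 and Nr4a3 also lay wholly below SP cells, with log2 fold changes of -1.21, -1.14 and -2.28. They encode an AP-1 subunit, a nuclear ERK phosphatase and an orphan nuclear receptor. Fosl1, a further FOS family gene chosen in the same way, had 0 reads in the 3 IMSP libraries and 50 in the 3 SP libraries, which is at least 13.9-fold lower against a floor of 3 reads over the group. The list median was -0.97 with Fosl1 at that bound as well. Spry4 was not tested, as it failed the filter on low values.

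**Figure D2:**
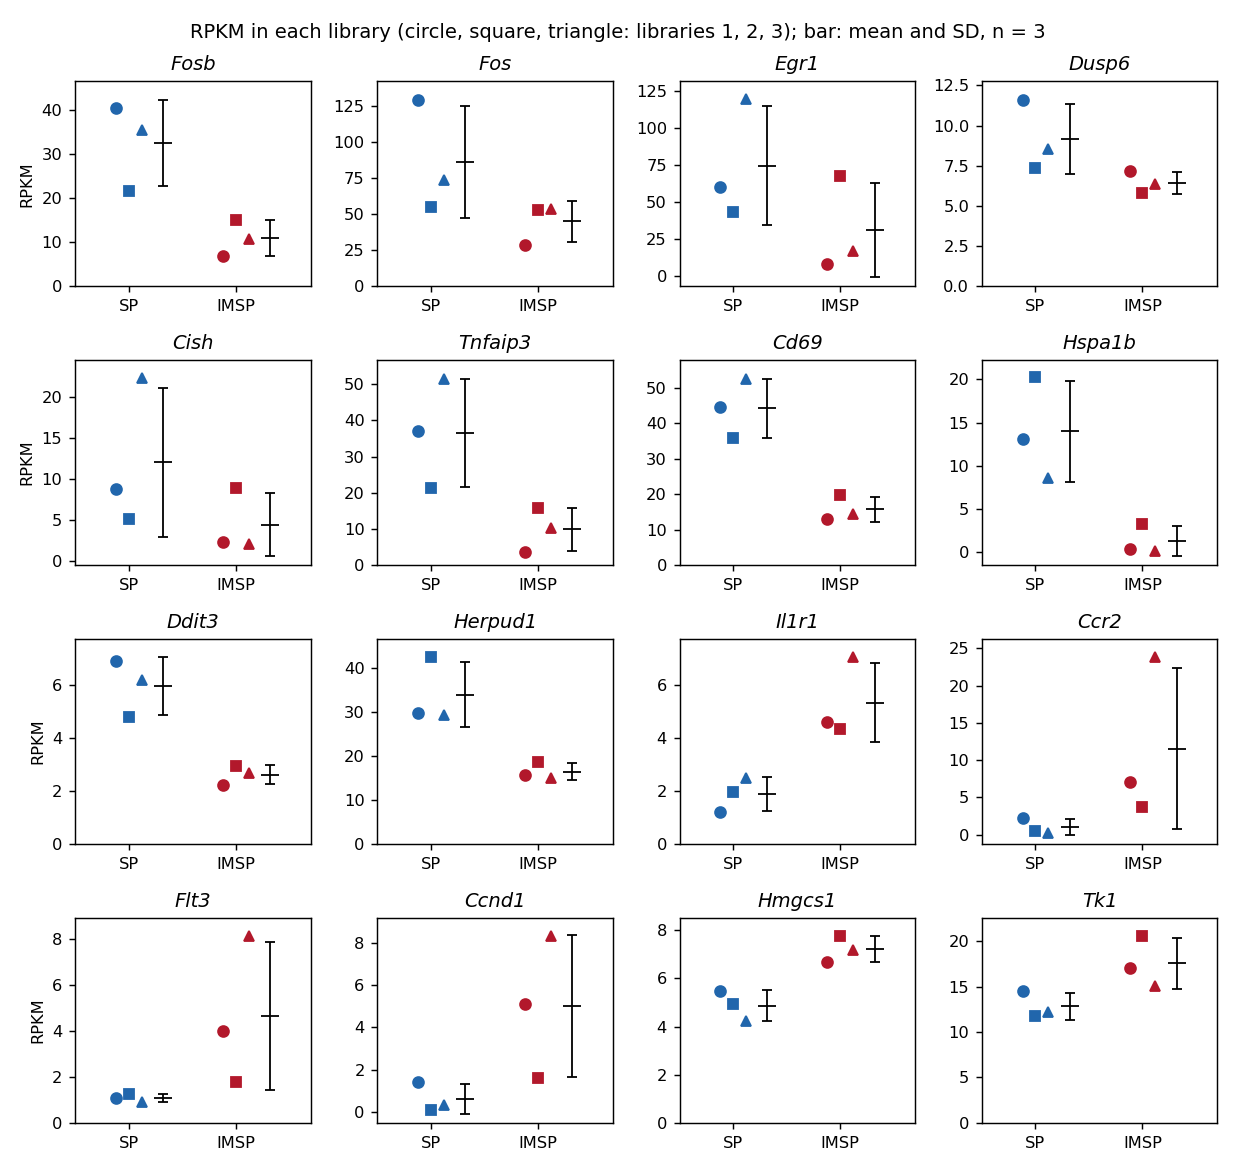
RPKM of 16 genes in each IMSP and SP library (points), with the group mean and SD. IMSP points lie below all SP points for Fosb, Fos, Dusp6, Tnfaip3, Cd69, Hspa1b, Ddit3 and Herpud1, above them for Il1r1, Ccr2, Flt3, Ccnd1, Hmgcs1 and Tk1, and overlap them for Egr1 and Cish.

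NF-kB targets had a median below 0 as well. Of 48 listed genes 40 were tested, with a median log2 fold change of -0.53, 11 lower and 0 higher at an unadjusted p under 0.05, and 6 wholly below against 2 wholly above SP cells. The counts at that p were 15 lower and 1 higher without IMSP2, and 10 lower and 0 higher without IMSP3. The list score was -0.88, -0.39 and -0.34 in IMSP1 to IMSP3 and 0.21, -0.38 and 0.45 in SP1 to SP3, so SP2 lay at the level of IMSP2 and below IMSP3. Cd69, an early activation antigen that holds back exit from tissue (chromosome 6, 129267325 to 129275436, minus strand), had the smallest p of all genes. It was at 12.9, 19.7 and 14.5 RPKM in IMSP and 44.6, 35.8 and 52.3 RPKM in SP cells, with no overlap (15.7 ± 3.53 against 44.2 ± 8.3 RPKM, mean ± SD, n = 3 each), and its log2 fold change was -1.49 ± 0.24 (SE; adjusted p = 0.234, limma). Over all alternatives that adjusted p ranged from 0.078 without IMSP2 to 0.682 without SP3. Tnfaip3 encodes A20, the ubiquitin-editing enzyme that terminates NF-kB signaling. It was at 3.73, 15.7 and 10.3 RPKM with imatinib and 37, 21.4 and 51.4 RPKM with vehicle, without overlap but with IMSP2 nearest to the vehicle range (log2 fold change -2.01 ± 0.47, SE). Cxcl2, a neutrophil chemoattractant, was at 0.42, 4.71 and 1.78 RPKM against 5.34, 7.24 and 14.2 RPKM, again with IMSP2 closest to SP cells. Tnf, the cytokine itself, was at 1.03, 1.7 and 2.65 RPKM in IMSP and 4.68, 1.46 and 6.33 RPKM in SP cells. The Tnf values overlapped, and its log2 fold change of -1.03 ± 0.53 (SE) had an adjusted p of 0.633 by limma.

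Genes of the integrated stress response and the chaperones were lower in a tighter pattern. Of 41 listed genes 38 were tested, with a median log2 fold change of -0.34. At an unadjusted p under 0.05, 16 were lower and 1 higher, and 15 lay wholly below SP cells against 1 above. There were 16 lower and 0 higher without IMSP2, and 13 lower and 0 higher without IMSP3. The list score was 1.11, 1.20 and 1.11 in IMSP and 1.75, 2.1 and 1.77 in SP cells, so every IMSP library lay below every SP library. The 1 member higher was Vldlr, a lipoprotein receptor (0.736, 1.4 and 0.884 RPKM against 0.279, 0.484 and 0.125 RPKM), named here after its values were seen. Ddit3 encodes CHOP, the factor that couples ER stress to cell death. It was at 2.21, 2.93 and 2.68 RPKM in IMSP and 6.91, 4.77 and 6.16 RPKM in SP cells (log2 fold change -1.15 ± 0.21, SE; adjusted p = 0.234, limma), and it shares exon bases with Mars on the other strand. So do Cish, Pim1, Abl1, Ptpn6, Mxd3, Ms4a6c, Csf1r, Orc6, Hmgcs1, Sqstm1, Cd274, Abcb1b, Ltbp3 and Igfbp7, named later, with a neighbour of theirs, and whether the counting used strand is not given in the sources used here. Herpud1, an ER membrane protein of protein disposal (chromosome 8, 94386438 to 94395377, plus strand), was at 15.7, 18.8 and 15.1 RPKM and 29.9, 42.5 and 29.5 RPKM, 2.03-fold apart (16.5 ± 1.99 against 34 ± 7.39 RPKM, mean ± SD, n = 3 each). Its log2 fold change was -1.02 ± 0.19 (SE; adjusted p = 0.234, limma).

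Among genes with a level of at least 2 RPKM, the heat shock genes Hspa1b and Hspa1a, which encode the inducible HSP70 proteins, had some of the lowest fold changes of the comparison. Hspa1b (chromosome 17, 34956436 to 34959238, minus strand) was at 0.344, 3.22 and 0.106 RPKM in IMSP and 13.1, 20.2 and 8.62 RPKM in SP cells. All IMSP values lay below all SP values, and the log2 fold change of -4.31 ± 0.91 (SE; adjusted p = 0.326, limma) was -5.46 without IMSP2 and -3.45 without IMSP3. Hspa1a was at 0.122, 0.975 and 0.133 RPKM and 4.43, 3.62 and 2.39 RPKM (log2 fold change -3.19 ± 0.94, SE). These genes are near-identical, so reads may have been split between them, and the split is uncertain. Hspa5, the ER chaperone BiP, and Hsph1, an HSP110 chaperone, both chosen after their values were seen, were lower by less, with log2 fold changes of -0.68 and -1.09 and no overlap.

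The promoters of these chaperones are shown because they carry the elements through which heat shock and ER stress factors are known to act. The sequences are from RefSeq (GRCm38.p6), 250 bases before to 50 bases after the start of transcription, and are printed 5′ to 3′ on the gene's strand, at chr17:34959189-34959488 (minus) for Hspa1b, chr17:34972107-34972406 (minus) for Hspa1a and chr2:34771840-34772139 (plus) for Hspa5. Capitals mark matches, on either strand, to the heat shock element GAANNTTC in the first pair and to the ER stress element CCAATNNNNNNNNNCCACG in Hspa5.
Hspa1b: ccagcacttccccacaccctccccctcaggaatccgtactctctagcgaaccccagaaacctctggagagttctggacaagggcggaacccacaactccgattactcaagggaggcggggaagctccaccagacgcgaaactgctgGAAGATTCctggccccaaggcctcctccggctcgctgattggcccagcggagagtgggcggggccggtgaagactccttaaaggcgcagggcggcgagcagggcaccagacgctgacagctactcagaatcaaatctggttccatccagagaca
Hspa1a: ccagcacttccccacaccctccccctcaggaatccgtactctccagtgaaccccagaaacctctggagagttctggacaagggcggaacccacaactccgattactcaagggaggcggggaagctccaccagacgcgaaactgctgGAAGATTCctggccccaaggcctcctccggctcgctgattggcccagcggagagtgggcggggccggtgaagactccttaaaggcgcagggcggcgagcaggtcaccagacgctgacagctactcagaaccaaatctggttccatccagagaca
Hspa5: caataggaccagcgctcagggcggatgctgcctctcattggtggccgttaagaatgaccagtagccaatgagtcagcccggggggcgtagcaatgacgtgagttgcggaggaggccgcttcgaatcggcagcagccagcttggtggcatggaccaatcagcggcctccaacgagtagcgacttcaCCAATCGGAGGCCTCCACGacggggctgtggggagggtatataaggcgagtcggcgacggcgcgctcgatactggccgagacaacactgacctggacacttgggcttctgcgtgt
The Hspa1a and Hspa1b windows had the same base at 296 of 300 positions. In the shares below each gene counts 1 time over all its promoters searched. The heat shock element was in 8 of 32 stress response genes with a promoter searched (25%; Asns, Bag3, Dnaja1, Hspa1a, Hspa1b, Hspd1, Hspe1 and Hsph1). It was in 9.04% of 27025 genes with a promoter of the same length and in 6.84% of the 7839 of them that were tested. The ER stress element was in 3 of the 32 (9.38%; Hsp90b1, Hspa5 and Pdia6) in 0.137% of all promoters and in 0.153% of those of tested genes. Of 30 genes of the immediate-early list with a promoter searched, the cAMP response element TGACGTCA was in 2 (Btg2 and Dusp1; 6.67%, against 2.03% of all and 3.69% of those of tested genes) and the CArG box in 3 (Dusp5, Egr2 and Zfp36; 10%, against 1.81% of all and 1.47% of those of tested genes). The search did not cover every gene of the list, and Egr1 was among those left out.

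Readouts of STAT5 lay slightly lower as a list, though not in the median without IMSP3, with few members past an unadjusted p under 0.05. Of 30 listed genes 25 were tested, with a median log2 fold change of -0.15, 2 lower and 1 higher at an unadjusted p under 0.05, and 1 wholly below against 2 wholly above SP cells. Without IMSP2 there were 4 lower and 1 higher (median -0.22), and without IMSP3 2 lower and 1 higher (median -0.0048). Of the 25, 16 were below 0, and after scaling to the same median 6 were above 0 with a list median of -0.23. The list score was -0.09, 0.02 and -0.01 in IMSP1 to IMSP3 and 0.21, 0.03 and 0.47 in SP1 to SP3, so every IMSP library lay below every SP library, IMSP2 and SP2 by only a narrow gap. Cish, a feedback inhibitor induced by STAT5, was at 2.33, 8.93 and 2.16 RPKM in IMSP and 8.8, 5.09 and 22.3 RPKM in SP cells. IMSP1 and IMSP3 were below all vehicle libraries and IMSP2 was not, so the log2 fold change of -1.46 ± 0.66 (SE; adjusted p = 0.589, limma) became -2.11 without IMSP2. Its promoter (chr9:107296409-107296708, plus strand, 300 bases, RefSeq GRCm38.p6) is shown for its pair of adjacent STAT5 elements TTCNNNGAA, in capitals. That element, which reads the same on both strands, was in 3 of 16 promoters of the list (18.8%; Cish, Gfi1b and Socs3) in 9.55% of all promoters and in 8.25% of those of tested genes.
Cish: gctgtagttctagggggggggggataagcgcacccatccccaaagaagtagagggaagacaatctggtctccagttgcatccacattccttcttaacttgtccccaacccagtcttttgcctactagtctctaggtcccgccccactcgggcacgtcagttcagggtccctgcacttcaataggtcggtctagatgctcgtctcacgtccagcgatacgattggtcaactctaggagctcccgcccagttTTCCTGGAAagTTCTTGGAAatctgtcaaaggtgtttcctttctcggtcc
The listed Socs2, Pim1 and Bcl2l1, a feedback inhibitor, a survival kinase and an anti-apoptotic protein, had log2 fold changes of -0.61, -0.19 and -0.33, all with overlapping groups and each above 0 in at least 1 fit that left out a library. The clearest gap was in Il2ra, the alpha chain of the IL-2 receptor. It was at 0.0129, 0.0993 and 0.10 RPKM in IMSP and 0.637, 0.852 and 1.02 RPKM in SP cells, a log2 fold change of -2.48 ± 0.64 (SE; adjusted p = 0.406, limma). Among these libraries only SP3 reached 1 RPKM. The gene passed the filter with the help of G0M+ libraries (6.72, 3.64 and 3.39 RPKM in DP1 to DP3). In the other direction, Ccnd1, the D-type cyclin of G1 entry (chromosome 7, 144929931 to 144939925, minus strand), was at 5.11, 1.63 and 8.31 RPKM with imatinib and 1.42, 0.107 and 0.326 RPKM with vehicle. The ranges did not overlap, though IMSP2 was close to SP1 (log2 fold change 3.05 ± 0.82, SE), and the gene shares exon bases with LTO1 on the other strand.

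Upstream of these readouts, the 41 kinases and adaptors around BCR-ABL1 had a median log2 fold change of 0.09, with 3 higher and 0 lower at an unadjusted p under 0.05. These counts were 2 higher and 2 lower without IMSP2, and 0 and 0 both without IMSP3 and after scaling to the same median. Their direction was not stable, as the median was -0.02 after a correction for GC content and length. Ptpn6, the phosphatase SHP-1, was at 30.0, 32.3 and 31.4 RPKM against 27.5, 22.8 and 26.8 RPKM, and the SRC family kinase Lyn at 11, 12.5 and 15.7 RPKM against 10.3, 8.9 and 10.9 RPKM. Both were higher by small amounts without overlap on the unscaled values (log2 fold changes 0.29 and 0.37). Of the 41 genes, 7 lay wholly above SP cells, and only 1 after scaling to the same median. Mouse Abl1 and Bcr, whose human counterparts form the oncogene, had log2 fold changes of -0.23 and -0.23 with overlapping groups. Whether reads of the human transgene were counted under the mouse genes is not given in the sources used here. The 12 genes of the MYC and MXD network had a median of -0.03, with 1 higher and 1 lower at an unadjusted p under 0.05, also without IMSP2 or IMSP3. Myc itself was at 51.4, 22 and 44.1 RPKM in IMSP and 27.8, 38 and 20.8 RPKM in SP cells, with wide overlap. Mxd1, which competes with MYC for MAX (chromosome 6, 86647042 to 86669161, minus strand), was at 1.97, 2.71 and 1.97 RPKM against 6.56, 4.1 and 5.03 RPKM. Its groups were clearly separate, with a log2 fold change of -1.19 ± 0.21 (SE; adjusted p = 0.234, limma). Mxd3, a family member expressed in S phase, lay the other way, at 3.2, 5.76 and 3.54 RPKM against 2.43, 1.36 and 3.09 RPKM.

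Cytokine and chemokine receptors formed the group with the highest median. Of 45 listed receptor and adhesion genes 41 were tested, with a median log2 fold change of 0.47. At an unadjusted p under 0.05, 9 were higher and 0 lower, and 14 lay wholly above SP cells. These 9 and 14 were 22% and 34.1% of the list, against 6.1% and 11.1% of all genes. After scaling to the same median they were 8 and 10, against 4.16% and 6.91% of all genes, with a list median of 0.39. Without IMSP2 there were 13 higher and 1 lower. Without IMSP3 there were 5 higher and 0 lower, so IMSP3 carried part of the count. Il1r1, the signaling receptor for IL-1 (chromosome 1, 40225080 to 40317257, plus strand), belongs to the TLR and IL-1 receptor list and was not among these 41. It was at 4.62, 4.36 and 7.05 RPKM in IMSP and 1.22, 1.95 and 2.49 RPKM in SP cells. Its groups were separate (5.34 ± 1.49 against 1.89 ± 0.638 RPKM, mean ± SD, n = 3 each), and the log2 fold change was 1.48 ± 0.34 (SE; adjusted p = 0.354, limma), or 1.26 without IMSP3. Flt3, the receptor that marks multipotent and lymphoid-primed progenitors, was at 4.01, 1.77 and 8.1 RPKM with imatinib and 1.09, 1.27 and 0.924 RPKM with vehicle. IMSP3 was highest and IMSP2 near the vehicle range, and the log2 fold change of 1.75 ± 0.68 (SE) became 1.23 without IMSP3. Il6st, the shared gp130 chain of the IL-6 family receptors, was at 4.4, 6.15 and 17.4 RPKM against 3.74, 1.46 and 2.66 RPKM (log2 fold change 1.63 ± 0.44, SE; without IMSP3 1.06). Kit, the stem cell factor receptor used in the sort and itself a target of imatinib, was at 30.8, 25.2 and 23.4 RPKM and 22.4, 16.8 and 16.9 RPKM, higher without overlap by a log2 fold change of 0.50 ± 0.25 (SE). The other sorted surface genes, Ly6a (Sca-1) and Cd27, had log2 fold changes of 0.56 and 0.07 with overlapping groups, and that of Cd27 was -0.01 after scaling to the same median.

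Several of the named monocyte and lymphoid-primed genes were highest in IMSP3, whereas the myeloid list as a whole was not. Ccr2, the chemokine receptor of monocytes and their progenitors (chromosome 9, 124101950 to 124113557, plus strand), was at 7.1, 3.64 and 23.9 RPKM in IMSP and 2.19, 0.505 and 0.243 RPKM in SP cells. Csf1r, the M-CSF receptor, was at 6.13, 3.65 and 28.7 RPKM and 5.05, 0.504 and 1.2 RPKM, and Ms4a6c, a membrane protein of the same lineage, at 5.31, 4.54 and 19 RPKM and 2.78, 0.472 and 0.386 RPKM. In each of these IMSP3 held the highest value, the vehicle library SP1 stood above SP2 and SP3, and Csf1r overlapped between groups. Their log2 fold changes of 3.47, 2.46 and 3.07 became 2.73, 1.60 and 2.43 without IMSP3. Dntt, the terminal transferase of early lymphoid progenitors (chromosome 19, 41029275 to 41059525, plus strand), was at 2.35, 0.454 and 5.19 RPKM in IMSP and 0, 0.0554 and 0 RPKM in SP cells. These values came from 248 reads over the 3 IMSP libraries and 2 over the 3 SP libraries, a depth-adjusted ratio of 149 (95% interval 40.8 to 1238, counting error only). Satb1, a chromatin organizer of the lymphoid lineage, was at 2.4, 1.43 and 5.47 RPKM against 0.764, 0.707 and 0.391 RPKM, likewise highest in IMSP3. Lyz1, a lysozyme of myeloid cells, was more even, at 1.62, 2.16 and 1.76 RPKM against 0.576, 0.466 and 1.06 RPKM. Over the whole list of 31 myeloid genes the median log2 fold change was 0.28, and 5 were higher and 1 lower at an unadjusted p under 0.05, with 7 and 1 without IMSP2 (median 0.60) and 2 and 0 without IMSP3 (median 0.18). The list score was 1.43, 0.32 and 1.40 in IMSP1 to IMSP3 and 1.09, 1.59 and 0.25 in SP1 to SP3, so the vehicle library SP2 was highest over the whole list and the groups overlapped. The part of the Y-linked difference of IMSP3 in these values was not tested.

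Genes of DNA replication were slightly and evenly higher in IMSP cells. All 55 listed S phase genes were tested. Their median log2 fold change was 0.27, 52 were above 0, and 23 lay wholly above SP cells, against 11.1% of all genes. Only 4 were higher at an unadjusted p under 0.05 and 0 were lower, with 1 higher without IMSP2 and 8 without IMSP3. After scaling to the same median the list median was 0.18, with 16 wholly above. The list score was 1.42, 1.33 and 1.39 in IMSP and 1.23, 1.20 and 1.15 in SP cells, a narrow gap without overlap. Tk1, the thymidine kinase of the S phase salvage pathway (chromosome 11, 117815526 to 117826092, minus strand), was at 17.1, 20.6 and 15 RPKM and 14.5, 11.8 and 12.2 RPKM (log2 fold change 0.45 ± 0.15, SE). Ccne1, the cyclin that drives entry into S phase, was at 3.35, 3.87 and 5.35 RPKM and 2.93, 2.17 and 2.54 RPKM (log2 fold change 0.68 ± 0.27, SE). Both were higher without overlap, but Tk1 shares exon bases with Afmid on the other strand. G2 and M phase genes (70 tested) had a median of 0.10, with 0 at an unadjusted p under 0.05. There was 1 higher without IMSP3, and the median was -0.04 without IMSP2. Mki67, a marker of cycling cells, was at 58.3, 70.6 and 54.5 RPKM in IMSP and 57.7, 50.8 and 54 RPKM in SP cells with overlap. The kinase inhibitors Cdkn1a (p21) and Cdkn1b (p27) overlapped too, with log2 fold changes of -0.88 and -0.08.

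**Figure D3:**
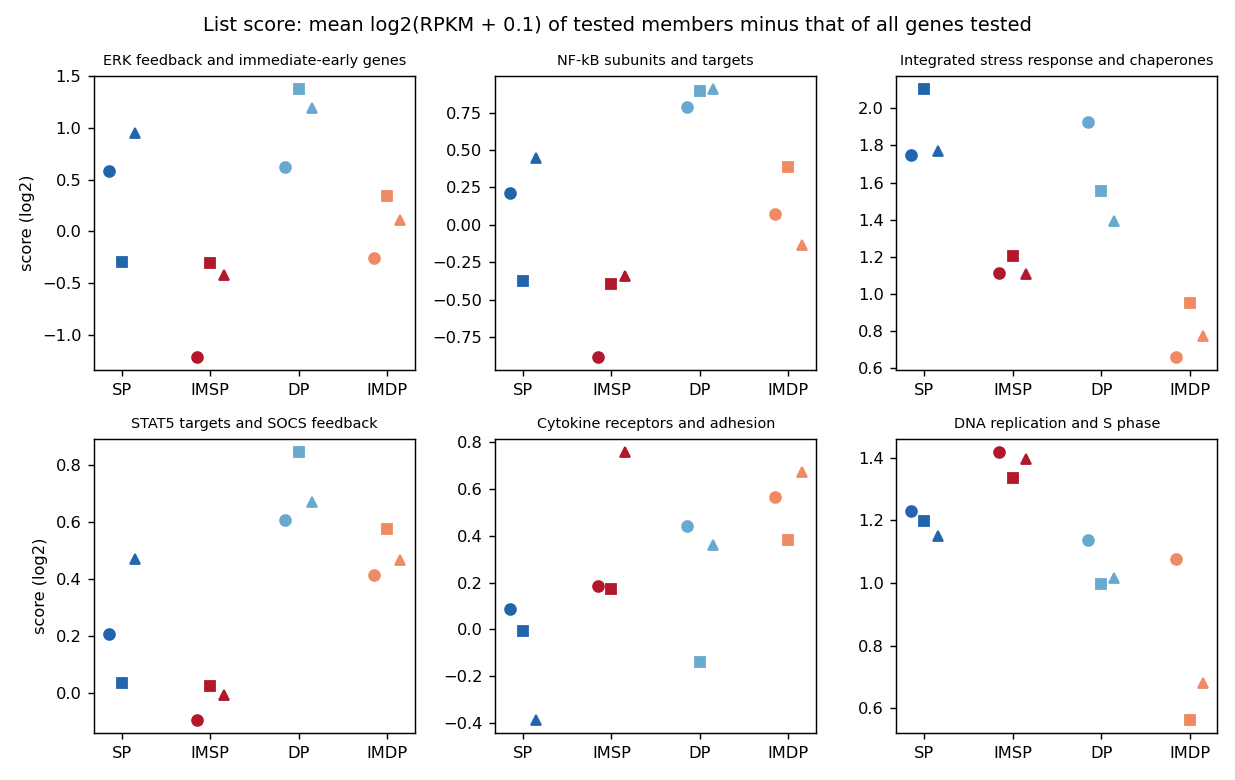
Score of 6 gene lists (mean log2(RPKM + 0.1) of the tested members minus the mean of all tested genes) in each of the 12 libraries (circle, square and triangle for libraries 1, 2 and 3 of a group). The stress response score lies lower in all IMSP than in all SP libraries, whereas the S phase score lies higher in IMSP than in SP and is lowest in IMDP2 (0.56) and IMDP3 (0.68).

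The S phase genes lay in opposite directions in the median in the progenitors and the G0M+ cells. The difference was tested directly, as the IMSP against SP log2 fold change minus that of IMDP against DP. Across all genes 0 (0%) passed an adjusted p of 0.05 by limma and 937 (9.3%) an unadjusted p under 0.05, of which 919 were positive and 18 negative. The median difference over all genes was 0.25. Scaling each library to the same median brought it to 0.01 and the counts to 405 (4.02%), 258 positive and 147 negative, so list medians and counts are given on both scales. Neighbouring library numbers, each pair of which held a G0M- and a G0M+ library of the same treatment, deviated together (correlations 0.43 to 0.65 across genes). With these pairs as a random effect 0 genes passed an adjusted p of 0.05 by limma (smallest 0.0695) and 2275 an unadjusted p under 0.05, 2204 positive and 71 negative. Of the 55 S phase genes, 29 were at an unadjusted p under 0.05, all positive, with a median difference of 0.69. Their median log2 fold change was 0.27 in the progenitors and -0.45 in G0M+ cells. The list score was 1.08, 0.564 and 0.681 in IMDP1 to IMDP3 and 1.14, 0.997 and 1.02 in DP1 to DP3. IMDP1 thus lay within the DP range, and no fit left out a G0M+ library. After scaling the medians were 0.18 and -0.30, the median difference was 0.46, and 18 were at that p. With the pairs, on the unscaled values, 45 were at that p, all positive. Tk1 and Orc6, a subunit of the origin recognition complex, were among the 3 genes named for the smallest p of a positive difference. Tk1 had a log2 fold change of 0.45 in the progenitors and -0.66 in G0M+ cells, a difference of 1.11 ± 0.22 (SE; adjusted p = 0.534, limma) that was 0.88 ± 0.19 after scaling. Orc6 had 0.22 and -0.85, a difference of 1.07 ± 0.21 (SE) that was 0.84 ± 0.17 after scaling. Mki67 had 0.17 and -0.79. In the negative direction, Tcf7, a WNT and lymphoid factor, had -0.21 in the progenitors and 1.57 in G0M+ cells, and Rnf217, a ubiquitin ligase, had -0.98 and 0.07.

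Other large lists showed how much of the difference followed the scale. G2 and M phase genes had medians of 0.10 in the progenitors and -0.63 in G0M+ cells, or 0.02 and -0.48 after scaling, with 14 of 70 at an unadjusted p under 0.05 for the difference and 7 after scaling. With the library pairs as a random effect, on the unscaled values, 25 were at that p. Their list score was -1.24, -1.68 and -1.97 in IMDP1 to IMDP3 and -0.205, -1.60 and -1.35 in DP1 to DP3. The G0M+ groups thus overlapped, and DP1 stood well above the other G0M+ libraries. The 75 ribosomal protein genes had a median of 0.05 in the progenitors, with 0 at an unadjusted p under 0.05 in either direction, also without IMSP2 or IMSP3, and -0.35 in G0M+ cells, or -0.03 and -0.20 after scaling. For these genes 33 were at that p for the difference, and 0 after scaling. With the library pairs as a random effect, on the unscaled values, 64 were. The 75 respiratory chain genes had 0.03 and -0.53, or -0.06 and -0.38 after scaling, with 26 at that p and 9 after scaling, both in fits without the pairs. In the progenitors themselves 1 respiratory chain gene was higher and 0 lower at that p, with 0 and 0 without IMSP2 and 1 and 0 without IMSP3. The progenitor medians of the ribosomal protein and respiratory chain lists changed sign with the scale. For the immediate-early and ERK feedback list the medians were -0.97 in the progenitors and -1.16 in G0M+ cells, or -1.05 and -1.01 after scaling. There 0 of 36 members reached that p (1 after scaling). The stress response medians were -0.34 and -0.87, or -0.42 and -0.72 after scaling. In fits without the pairs 3 of 38 were at that p, and 2 after scaling. A difference that misses the threshold does not show that both populations responded alike.

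**Figure D4:**
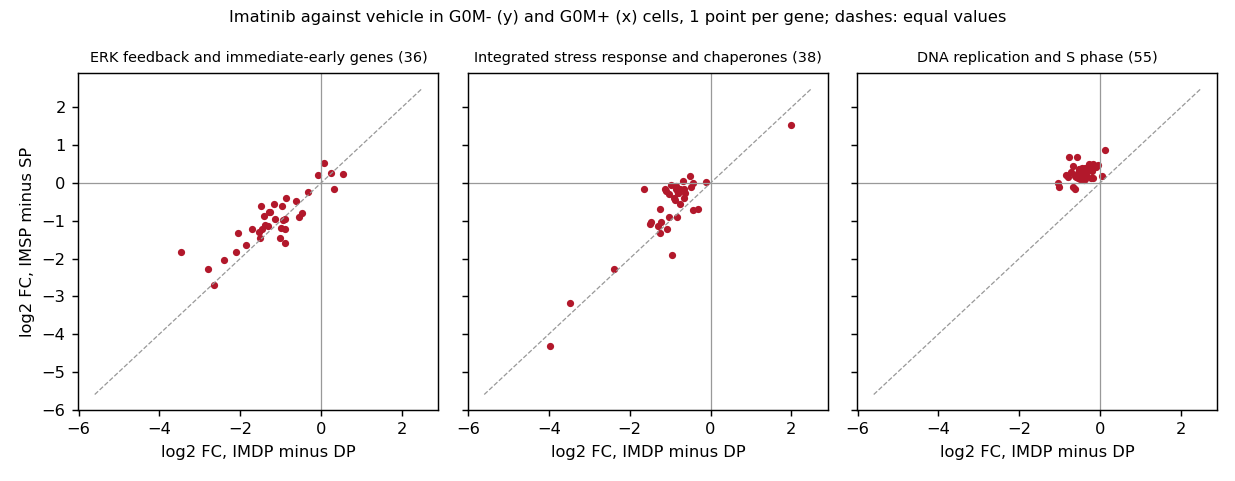
Log2 fold change with imatinib in G0M- progenitors (IMSP against SP) plotted against that in G0M+ stem cells (IMDP against DP) for tested members of 3 lists. Immediate-early and stress response genes lie below 0 on both axes in the median, whereas S phase genes lie above 0 in progenitors (median 0.27) and below 0 in G0M+ cells (median -0.45).

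Cholesterol genes had a median above that of all genes, with counts near the background. Of 37 listed genes 33 were tested, with a median log2 fold change of 0.29, 3 higher and 0 lower at an unadjusted p under 0.05, and 6 wholly above SP cells. These counts were 9.09% and 18.2% of the list, against 6.1% and 11.1% of all genes, and after scaling to the same median they were 2 and 3 with a median of 0.20. There were 6 higher without IMSP2 and 5 without IMSP3. Hmgcs1, the enzyme that makes HMG-CoA, was at 6.7, 7.75 and 7.2 RPKM and 5.47, 4.92 and 4.22 RPKM. Its groups were separate (7.22 ± 0.526 against 4.87 ± 0.627 RPKM, mean ± SD, n = 3 each), with a log2 fold change of 0.56 ± 0.17 (SE; adjusted p = 0.443, limma). Vegfa, a hypoxia-responsive growth factor, was lower, at 4.23, 5.69 and 3.36 RPKM against 8.87, 10.3 and 13.9 RPKM, within a glycolysis and hypoxia list whose median was -0.04 (0 higher and 1 lower of 42; 0 and 3 without IMSP2, 0 and 0 without IMSP3). Sqstm1, the autophagy receptor p62, was at 13.8, 22.8 and 17.8 RPKM in IMSP and 39.5, 29.8 and 50.3 RPKM in SP cells, wholly below, while Asah1, the lysosomal acid ceramidase, was at 5.97, 5.41 and 6.42 RPKM and 3.44, 4.66 and 3.01 RPKM, wholly above. The 47 lysosome and autophagy genes were split accordingly, with a median log2 fold change of 0.16 and 5 higher and 3 lower at an unadjusted p under 0.05, or 9 and 5 without IMSP2 and 3 and 2 without IMSP3.

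Antigen presentation genes were also split. Of 32 tested, 4 were higher and 8 lower at an unadjusted p under 0.05, with a median log2 fold change of 0.08, or 5 higher and 6 lower without IMSP2 and 2 higher and 3 lower without IMSP3. H2-Q6, a non-classical class I gene, was at 2.55, 5.92 and 0 RPKM in IMSP and 35.8, 17.4 and 21.7 RPKM in SP cells. Its log2 fold change was -4.35 ± 1.09 (SE) and -2.58 without IMSP3, in which it was listed at 0. It belongs to a family of near-identical copies and was summed over 4 listed copies, so its value is uncertain. H2-Ob, a class II gene that restrains peptide loading, was at 1.8, 1.37 and 2.4 RPKM and 0.938, 0.23 and 0.301 RPKM, wholly above. Among immune checkpoint and drug transport genes (19 tested; median log2 fold change 0.13; 3 higher and 0 lower at an unadjusted p under 0.05, or 4 and 0 without IMSP2 and 2 and 0 without IMSP3), Abcb1b, a P-glycoprotein pump, was at 4.68, 4.27 and 5.24 RPKM and 2.86, 1.52 and 3.01 RPKM. Its groups did not overlap, with a log2 fold change of 0.97 ± 0.26 (SE). Cd274 (PD-L1) was at 4.52, 7.74 and 4.04 RPKM with imatinib and 7.32, 3.53 and 5.65 RPKM with vehicle, and its log2 fold change of -0.02 ± 0.32 (SE) changed sign in 4 of the fits that left out a library.

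The balance of stem cell genes rested on single libraries. Of the 52 tested, 5 were higher and 1 lower at an unadjusted p under 0.05, with a median log2 fold change of 0.15 that was -0.12 without IMSP2 and 0.36 without IMSP3. The counts became 4 higher and 5 lower without IMSP2, and 4 and 1 without IMSP3. Thy1, a surface antigen low on stem cells, was at 2.72, 6.9 and 1.8 RPKM and 6.67, 12.8 and 8.22 RPKM with overlap (log2 fold change -1.43 ± 0.42, SE). Ltbp3, a binding protein that stores TGF-beta, was at 3.85, 3.55 and 2.84 RPKM against 2.06, 1.16 and 2.18 RPKM, wholly above. Adgrl4, an adhesion receptor of endothelial and stem cells, was at 12, 20.9 and 21.2 RPKM and 6.88, 5.7 and 1.61 RPKM. It had a log2 fold change of 2.09 ± 0.66 (SE), close to that of 2.42 for Aldh1a1, the enzyme that makes retinoic acid from retinal (1.2, 3.98 and 1.09 RPKM against 0.407, 0.232 and 0.146 RPKM). Dhrs3, which acts in the opposite direction on retinal, was at 1.87, 1.55 and 2.58 RPKM against 0.669, 0.282 and 0.912 RPKM, also wholly above. Among the genes with the lowest fold changes, Khdc1a, an oocyte and embryo gene, had 3 reads over the IMSP libraries and 313 over the SP libraries, most of them in SP3. The depth-adjusted ratio was 86.8 in favour of SP cells (95% interval 29.4 to 423, counting error only). Igfbp7, a secreted binding protein of the insulin-like growth factor family, was at 0.844, 0.435 and 0.673 RPKM against 1.84, 4.08 and 4.71 RPKM. Alox5, the 5-lipoxygenase of leukotriene synthesis, was at 1.57, 4.85 and 0.708 RPKM against 5.64, 6.63 and 14.4 RPKM, and Scin, an actin-severing protein, at 1.76, 1.11 and 0.643 RPKM against 5.93, 3.09 and 7.55 RPKM. All of these lay wholly below SP cells, with log2 fold changes of -2.22, -2.13 and -2.15 for the last 3.

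The remaining lists had medians between -0.07 and 0.17, and several of their counts turned with 1 library. TLR and IL-1 receptor signaling genes had 36 of 50 tested, a median log2 fold change of 0.04, and 5 higher and 2 lower at an unadjusted p under 0.05 (13.9% and 5.56%, against 6.1% and 2.29% of all genes; 4 and 3 without IMSP2, 2 and 0 without IMSP3). Il1rl1, the IL-33 receptor, was at 0.122, 0.248 and 0.0498 RPKM in IMSP and 0.417, 1.63 and 1.29 RPKM in SP cells, wholly below and so opposite to Il1r1. It was chosen after its values were seen, and mast cells also express it, whose genes summed to 6.77 to 25.7 RPKM in IMSP and 14.2 to 44.9 RPKM in SP cells. Their part in the Il1rl1 values was not tested. Tlr2 was at 1.95, 1.98 and 3.07 RPKM and 2.22, 0.672 and 1.69 RPKM with overlap, and Tlr1 and Tlr6 were not tested. Interferon-stimulated genes (58 tested) had a median of 0.04, with 4 higher and 3 lower at that p. That balance was 3 higher and 7 lower without IMSP2 (median -0.16), and 2 higher and 1 lower without IMSP3 (median 0.14). The p53 targets (31 tested; median 0.05) had 3 higher (9.68%) and 4 lower (12.9%), and their balance turned likewise, to 1 higher and 7 lower without IMSP2 (median -0.11) and 5 higher and 1 lower without IMSP3 (median 0.22). FOXO factors and targets (32; median -0.07) had 1 higher (3.12%) and 3 lower (9.38%), with 0 and 5 without IMSP2 and 3 and 2 without IMSP3. Kinase inhibitors and G1 genes (25; median 0.17) had 3 higher (12%) and 1 lower (4%), with 2 and 3 without IMSP2 and 3 and 0 without IMSP3. The BCL2 family (24; median -0.04) had 1 higher and 0 lower, with 2 and 1 without IMSP2 and 1 and 0 without IMSP3. Ribosome biogenesis genes (59; median 0.16) had 0 in either direction, also without IMSP3, and 6 higher and 0 lower without IMSP2 (median 0.29).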

How the data were processed

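RNA-seq was analysed from RPKM values that the authors deposited for 48737 features in each of 12 libraries, mapped to GRCm38 (mm10). The methods name CLC Genomics Workbench for mapping, a reporting summary names HISAT2 and featureCounts, and edgeR served the authors' own statistics. The methods also say that expression levels were normalized. Whether the deposited RPKM carry that normalization, and whether strand was used, are not given in the sources used here. All 17735 features above 0 were whole multiples of 1 read, which gave totals of 11367600 to 20573800 reads in IMSP and SP cells. The 4568 numbered copies of 1934 genes were summed, leaving 46103 genes, of which 10072 had at least 1 RPKM in at least 3 of 12 libraries. Values were fitted as log2(RPKM + 0.1) with limma 3.58.1 (R 4.3.3, variance following the mean, all 4 groups, no block) and Benjamini-Hochberg adjustment over all genes. The pseudocount makes fold changes of low genes too small. With 3 against 3 libraries an exact permutation test cannot go below p = 0.1 and was not run.

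Groups came from the labels. Members and the 25 gene lists were chosen with earlier results of these data known, so list counts are descriptions. Named genes were the 12 with the highest and the 12 with the lowest fold change among those without overlap, at an unadjusted p under 0.05 and at least 2 RPKM, the 5 with the smallest p, the 2 with the smallest p in each list, the 3 with the smallest p of the difference in each direction, and a set of pathway genes. 1 gene that this rule names is not reported here. Both the read recovery and the fit were tested on simulated data. Gene positions are from GENCODE M21. Alternatives covered scaling, GC content and length, pseudocount, filter, block, trend, limma-voom and each library left out.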

Additional observations from a re-analysis of the deposited data

How the results depend on the processing

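No gene passed an adjusted p of 0.05 by limma under any of the 15 alternatives to the fit of IMSP against SP. Of 1405 recomputed fold changes of 94 named genes 1384 kept their direction, and 329 of 350 recomputed list medians moved by less than the spread between libraries. The 614 higher genes at an unadjusted p under 0.05 became 389 after the GC and length correction and 354 to 658 with a library left out (384 without IMSP1, 354 without SP3). The 231 lower genes became 475 after that correction, 381 with limma-voom, 438 after scaling to the same median and 133 to 508 with a library left out (133 without IMSP3, 143 without SP3, 508 without IMSP2). The 937 genes for the difference between populations became 359, 376 and 405 under the same alternatives, 2275 with pairs of neighbouring library numbers as a random effect, and 541 to 1140 with a library left out (541 without IMSP1, 569 without SP3). The cause was not tested.

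The same-numbered IMSP and SP replicates did not deviate together (correlations -0.23, -0.40 and -0.26), so the numbers were not taken as pairs. With the replicate block 0 genes passed, 668 were higher and 249 lower at an unadjusted p under 0.05, and 1168 for the difference.

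List medians that moved beyond the spread, given for the GC and length correction, scaling and the range with a library left out, were those of BCR-ABL1 adaptors (-0.021, 0.0055, 0.058 to 0.14), the MYC network (-0.11, -0.11, -0.18 to 0.036), S phase (0.17, 0.18, 0.19 to 0.30), the BCL2 family (-0.12, -0.12, -0.030 to 0.059) and cholesterol (0.18, 0.20, 0.17 to 0.32, and 0.21 with a pseudocount of 1). With a library left out, G2 and M phase ranged from -0.041 to 0.24 and FOXO from -0.28 to 0.021. Signs changed with a library left out for Socs2 (-1.07 to 0.14), Pim1 (-0.46 to 0.014), Bcl2l1 (-0.66 to 0.065), Ccnd2 (-0.062 to 0.50), Cd274 (-0.30 to 0.22), Cdkn1b (-0.28 to 0.022) and Tlr4 (-0.32 to 0.47). Tlr4 was also -0.10 after the GC and length correction and with limma-voom, -0.030 with a pseudocount of 1 and -0.072 after scaling. Cd27 was -0.0030 after the GC and length correction and -0.013 after scaling.

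Treatment and library number cannot be told apart, and with 100 cells a library and 3 libraries a group the precision is limited.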
